A study of Mus musculus with 12 samples.

Results

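The genes described here carry a cell from the end of G2 through mitosis to cytokinesis. They are 38 named genes of the spindle, the kinetochore and the mitotic kinases, chosen by gene symbol out of the 24411 gene symbols of the count table. All 38 were found in the table, and all 38 had enough reads to be tested, as did 12146 genes in all.

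Mitosis is driven by the kinase CDK1 bound to its cyclins. Kinetochores then hold the chromosomes on spindle microtubules until a checkpoint releases the anaphase-promoting complex, a ubiquitin ligase that ends mitosis. Most of these genes are transcribed periodically, late in the cell cycle, under a repressor complex called DREAM and the activators B-MYB and FOXM1, which reach their promoters through a short element named the cell cycle homology region. In a cultured mesenchymal cell their transcripts are widely read as a sign of dividing cells.

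RNA was sequenced from primary colonic myofibroblasts, contractile fibroblast-like cells of the gut wall, grown from the distal colon of 16-week-old C57BL/6 mice. The knockout group of 6 libraries came from TNFR1-/- mice, which lack the tumor necrosis factor receptor encoded by Tnfrsf1a. The control group of 6 libraries came from TNFR1+/- mice, which carry 1 working allele. Both groups were untreated cells of passage 6 to 8, grown in Matrigel and collected at day 5, in a protocol whose growth medium held serum, insulin and epidermal growth factor. The passage of each library is not given in the sources used here, nor is it said which libraries came from separate mice or cultures. The p-values therefore measure the spread among these libraries only, and that spread may be technical.

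Libraries of the same genotype did not all resemble each other. Their profiles split into 4 sets: knockout 1 to 4 formed the first, knockout 5 and 6 the second, control 1 to 5 the third, and control 6 stood by itself. Spearman's rho across genes was at least 0.989 inside a set, and between the 2 sets of a genotype it was at most 0.954. Control 6 was closer to knockout 1 to 4, at 0.968 to 0.976, than to the other controls, at 0.952 to 0.954. Total counts were 6543013 to 9937008 in knockout and 11890729 to 16458689 in control libraries. The ribosomal precursor Rn45s took 7.01% and 8.25% of the counts in knockout 5 and 6, 1.63% to 2.10% in knockout 1 to 4 and 0.351% to 1.19% in the controls. Results on the members and lists are therefore given with and without knockout 5 and 6. Levels are given in CPM, the reads of a gene per 1000000 reads of its library after scaling of library sizes. Tnfrsf1a itself was measured at 40.6, 45.0 and 46.1 CPM in knockout and 54.9, 79.0 and 81.3 CPM in control libraries (lowest, median and highest), a log2 difference of -0.76 (SE 0.10, adjusted p = 9.24e-05). The lowest control was control 6, and control 1 to 5 were all at 73.5 CPM or above. The transcript was thus lower but still read in every knockout library, and where the deletion lies in the gene is not given in the sources used here.

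The promoters of these genes are shown first, because the members share features there that the choice of genes did not use. Promoter windows of RefSeq (assembly GRCm38.p6, from 250 bases before to 50 bases after each transcription start) were matched by symbol for 32 of the 38 members, with 34 windows. The windows were searched on both strands for TTTGAA or TTCGAA, the core letters of the cell cycle homology region, for CCAAT, the box bound by NF-Y, and for GCGCGAA or GCGGGAA, an E2F-type site. No motif of one kind contains a motif of another. The cell cycle homology letters were found in 28 of 34 member windows (82.4%), against 19.2% of all 32851 windows. A CCAAT box was likewise found in 28 of 34 (82.4%), against 37.4% of all windows. Both together were found in 25 (73.5%, against 7.52%), and at least 2 CCAAT boxes in 19 (55.9%, against 11.7%). The E2F-type letters were found in 2 windows (5.88%), close to the 6.00% of all windows. A match describes the letters in a window and says nothing of binding. From 100 bases before to 30 bases after the start, 7 members are printed 5′ to 3′ along the gene's strand, with cell cycle homology letters and CCAAT boxes of either strand (also read as TTCAAA and ATTGG) in capitals. Cdk1, Cdc20 and Prc1 show the pairing of both motifs in genes that were higher in knockout. Hmmr and Anln were the members with the smallest adjusted p, and Ccnb2 and Ube2c are members that did not pass the test.
Cdk1 (chr10:69352883-69353012, minus strand): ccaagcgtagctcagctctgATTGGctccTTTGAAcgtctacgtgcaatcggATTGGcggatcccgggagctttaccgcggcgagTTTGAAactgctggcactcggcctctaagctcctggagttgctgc
Cdc20 (chr4:118437314-118437443, minus strand): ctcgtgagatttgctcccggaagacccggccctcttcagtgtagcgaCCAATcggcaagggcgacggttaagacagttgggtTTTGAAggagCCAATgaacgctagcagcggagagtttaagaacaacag
Prc1 (chr7:80294351-80294480, plus strand): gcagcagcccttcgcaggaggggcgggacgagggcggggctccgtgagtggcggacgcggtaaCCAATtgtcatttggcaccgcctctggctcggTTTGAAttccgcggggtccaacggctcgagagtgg
Hmmr (chr11:40733408-40733537, minus strand): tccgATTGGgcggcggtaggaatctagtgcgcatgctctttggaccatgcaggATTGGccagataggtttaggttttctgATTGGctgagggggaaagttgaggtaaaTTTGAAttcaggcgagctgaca
Anln (chr9:22389177-22389306, minus strand): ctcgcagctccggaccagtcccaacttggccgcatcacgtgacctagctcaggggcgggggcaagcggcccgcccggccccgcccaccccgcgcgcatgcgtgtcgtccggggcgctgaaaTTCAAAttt
Ccnb2 (chr9:70421525-70421654, minus strand): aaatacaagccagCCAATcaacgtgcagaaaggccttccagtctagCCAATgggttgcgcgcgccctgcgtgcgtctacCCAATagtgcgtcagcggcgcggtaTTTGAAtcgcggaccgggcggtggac
Ube2c (chr2:164769829-164769958, plus strand): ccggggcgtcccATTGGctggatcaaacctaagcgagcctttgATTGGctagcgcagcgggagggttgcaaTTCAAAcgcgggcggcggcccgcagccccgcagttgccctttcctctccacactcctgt

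In the first window of each member, 25 of 35 cell cycle homology matches lay within 50 bases of the start, and 58 of 61 CCAAT boxes lay before it. Among the 24 members with a promoter window that were higher in knockout, 16 held both motifs, and among the 8 that did not pass the test, 7 held both. Birc5, Mad2l1 and Nuf2 held neither in these windows and were among the members that rose.

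**Figure D1:**
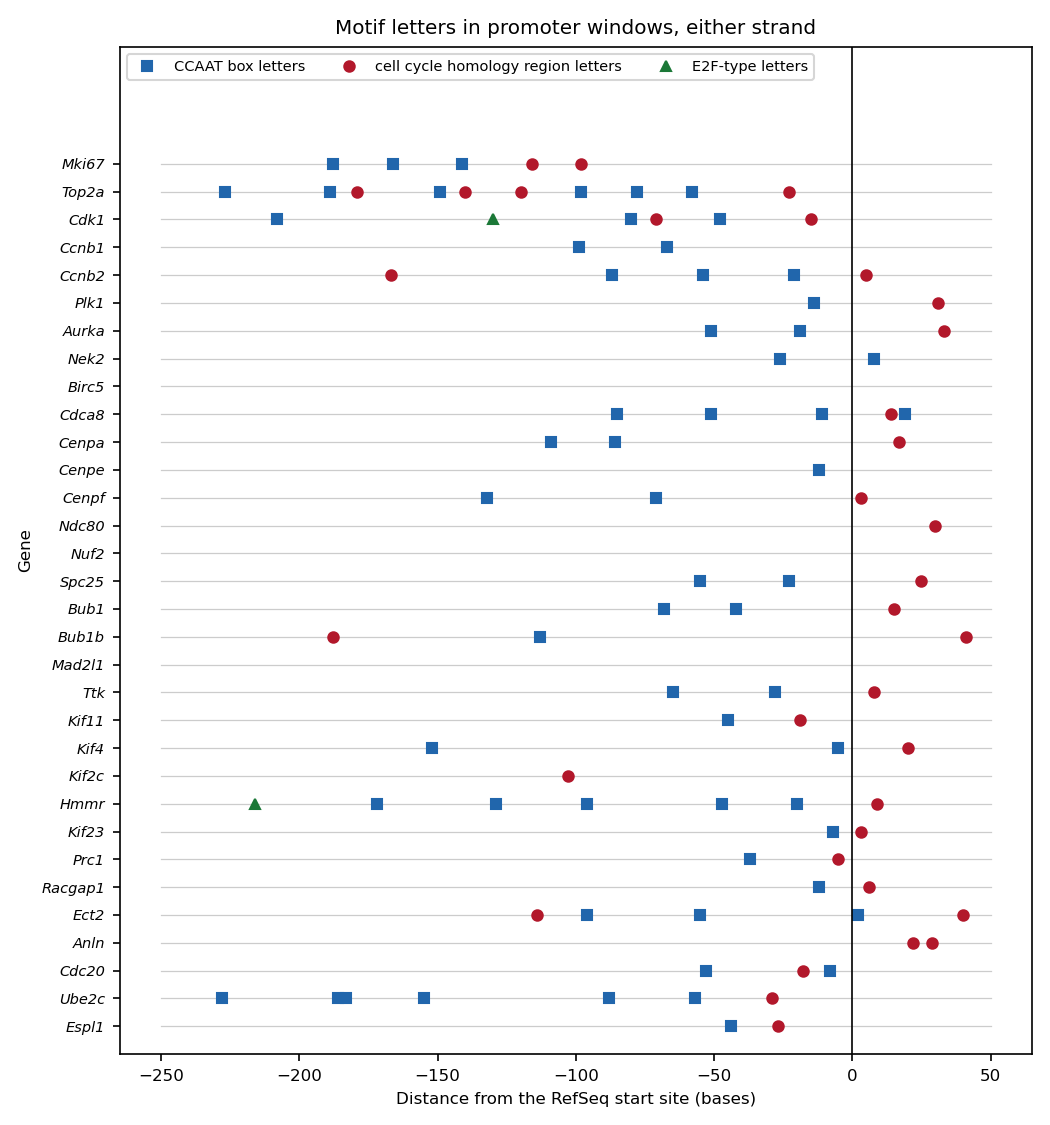
Positions of motif matches in the promoter windows of the 32 members with a RefSeq promoter; the x axis is the distance in bases from the transcription start, each line is 1 gene, and symbols mark the cell cycle homology region, CCAAT and E2F-type letters. Most cell cycle homology matches (25 of 35) lie within 50 bases of the start, and most CCAAT boxes (58 of 61) lie before it.

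Over all 12 libraries, 27 of the 38 mitosis and spindle genes were higher in knockout (71.1%; quasi-likelihood test of edgeR, p adjusted by Benjamini-Hochberg over all genes, under 0.05). Among all genes tested 21.4% were called higher and 21.6% lower. No member was called lower by edgeR, DESeq2 or limma-voom, and none was lower at an unadjusted p under 0.05 in edgeR. The other 11 did not pass. The median log2 difference of the 38 members was 0.76, a fold of 1.69, against a median of 0.02 over all genes tested, and single members ran from 0.05 (Cdc25c) to 1.19 (Anln). In 19 members all 6 knockout libraries lay above all 6 controls, an order found in 10.6% of all genes, while the reverse order, found in 12.5% of all genes, was found in no member. In bulk RNA, a larger share of cells in mitosis and more of these transcripts per dividing cell cannot be told apart.

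Most of the size of this difference lay in knockout 5 and 6. Relative to the control mean, the median member stood at a log2 value of 0.25 to 0.32 in knockout 1 to 4, at 1.26 in knockout 5 and 1.39 in knockout 6, and at -0.16 to 0.10 in the controls. In summed CPM the 38 members came to 641 to 778 in control libraries, 893 to 939 in knockout 1 to 4, 1775 in knockout 5 and 1856 in knockout 6. Knockout 5 and 6 lay above knockout 1 to 4 in 37 of 38 members (35.6% of all genes), the exception being Ccnb2. They lay above all 6 controls in 36 of 38 (33.6% of all genes), the exceptions being Ccnb2 and Cdc25c. Knockout 1 to 4 alone lay above all 6 controls in 19 members, against 15.9% of all genes.

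Without knockout 5 and 6, 20 members were called higher, and all 20 were among the 27. Of all genes 24.5% were then higher and 27.5% lower. The median member fell to a log2 difference of 0.30, 35 of 38 members kept a positive sign, and 1 member, Aurkb, was called lower. With control 6 also left out, 23 members were higher and Aurkb lower, with a median of 0.29. In that fit 34.9% of all genes were higher and 36.4% lower. It compared 1 set of each genotype, so that genotype and set cannot be told apart. The fit without knockout 5 and 6 also held only 1 knockout set, so its calls carry the same limit on the knockout side. When each of the 4 sets was summed into 1 sample, no member and no gene of 13132 passed (0% called; edgeR quasi-likelihood test). At an unadjusted p under 0.05, 12 members were then higher and none lower, among 438 genes higher and 609 lower. The lowest adjusted p of a member was 0.613, and the median log2 difference was 0.91.

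**Figure D2:**
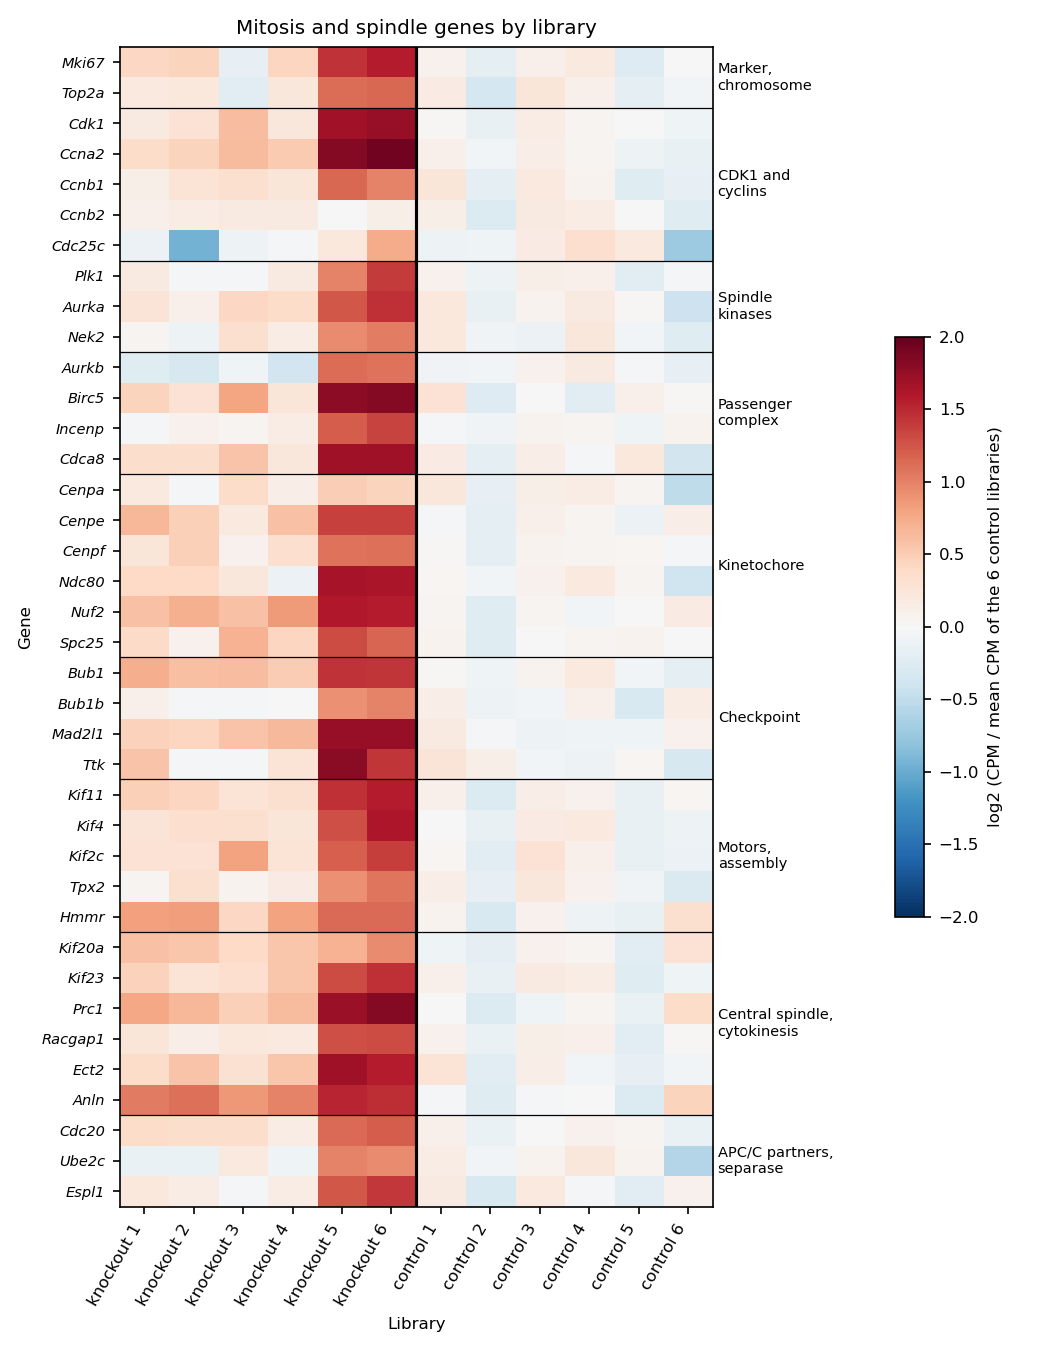
Log2 CPM of the 38 members in each of the 12 libraries, relative to the mean of the 6 controls; columns are libraries, lines are genes grouped by role, and colour gives the log2 difference. Knockout 5 and 6 stand above knockout 1 to 4 in 37 of 38 members, knockout 1 to 4 stand above all controls in 19, and Ccnb2 varies little across the libraries.

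Mki67, which encodes the surface protein of mitotic chromosomes known as Ki-67, and Top2a, the topoisomerase that untangles sister chromatids, are the usual markers of dividing cells. Mki67 was measured at 42.4, 64.3 and 141 CPM in knockout and 39.6, 48.9 and 54.2 CPM in control libraries (lowest, median and highest, as in all pairs of 3 values below). Knockout 5 and 6 stood highest at 129 to 141 CPM. Knockout 1, 2 and 4, at 62.9 to 64.5 CPM, also lay above all controls, and knockout 3, at 42.4 CPM, lay within their range. The log2 difference was 0.83 (SE 0.26, adjusted p = 0.0213), and it did not pass without knockout 5 and 6, at 0.31 (SE 0.13, adjusted p = 0.0654). With control 6 also left out it passed, at 0.32 (adjusted p = 0.0209). Top2a was measured at 58.2, 78.1 and 148 CPM in knockout and 52.8, 68.4 and 79.0 CPM in control libraries, with the same 2 libraries on top. Its log2 difference of 0.54 (SE 0.22, adjusted p = 0.0669) did not pass the test; without knockout 3 it did (adjusted p = 0.024), and without knockout 5 and 6 it was 0.12.

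CDK1 and its cyclins commit the cell to mitosis. Of the 5 genes of this group, 3 were higher. Cdk1 was measured at 30.5, 37.4 and 90.9 CPM in knockout and 24.6, 27.2 and 29.9 CPM in control libraries, with no overlap between the groups, for a log2 difference of 0.96 (SE 0.28, adjusted p = 0.0153). Ccna2, the cyclin of S phase and early mitosis, was measured at 28.7, 33.3 and 85.2 CPM in knockout and 20.2, 22.2 and 24.4 CPM in control libraries. Here too the groups did not overlap, and the difference of 1.12 (SE 0.28, adjusted p = 0.00689) was a fold of 2.18. Ccnb1, the main cyclin of mitotic entry, was measured at 25.6, 29.2 and 52.5 CPM in knockout and 20.1, 23.1 and 28.1 CPM in control libraries, and knockout 1, the lowest knockout library, fell within the control range. Its log2 difference was 0.57 (SE 0.19, adjusted p = 0.0253), and the call was lost without knockout 5, knockout 6, control 2 or control 5 (adjusted p up to 0.0585). Ccnb2, the second B-type cyclin, was measured at 13.5, 14.9 and 15.4 CPM in knockout and 11.2, 14.2 and 15.4 CPM in control libraries. It was the one member not raised in knockout 5 and 6, whose mean was 0.931 times that of knockout 1 to 4, and its log2 difference of 0.12 (SE 0.10, adjusted p = 0.363) did not pass. The difference between the changes of Ccnb1 and Ccnb2 was not tested. Cdc25c, the phosphatase that switches CDK1 on, gave 0.05 (SE 0.25, adjusted p = 0.884) on libraries with as few as 17 counts. Without knockout 5 and 6, the log2 differences were 0.15 for Ccnb2 and -0.25 for Cdc25c, neither past the test. In the same fit they were 0.34 for Cdk1 (adjusted p = 0.0102) and 0.49 for Ccna2 (adjusted p = 0.000453), and Ccnb1 at 0.24 no longer passed (adjusted p = 0.082).

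Among the kinases of centrosomes and spindle poles, 1 of 3 was higher. Aurka, which matures centrosomes and builds the bipolar spindle, was measured at 13.5, 16.4 and 34.3 CPM in knockout and 9.41, 12.9 and 14.4 CPM in control libraries. Groups overlapped, and the log2 difference was 0.74 (SE 0.23, adjusted p = 0.0216). Plk1, a kinase with roles from mitotic entry to cytokinesis, was measured at 18.0, 20.8 and 48.4 CPM in knockout and 15.9, 18.7 and 19.9 CPM in control libraries. Only knockout 5 and 6, at 36.3 to 48.4 CPM, stood clear of the other libraries, and the difference of 0.57 (SE 0.24, adjusted p = 0.07) did not pass. Nek2, which parts the centrosomes, gave 0.47 (SE 0.20, adjusted p = 0.0734). Plk1 passed without knockout 2 or knockout 3, with an adjusted p down to 0.0402, and Nek2 without knockout 1 or knockout 2, down to 0.0351. With knockout 5 and 6 left out, Aurka (0.29, adjusted p = 0.0671), Plk1 (0.08) and Nek2 (0.11) did not pass.

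The chromosomal passenger complex, in which the kinase Aurora B corrects faulty attachments, gave mixed calls. Its subunits Birc5 (survivin) and Cdca8 (borealin) were higher, while the kinase gene Aurkb and the scaffold gene Incenp did not pass. Birc5 was measured at 13.1, 17.1 and 39.6 CPM in knockout and 9.19, 11.1 and 13.4 CPM in control libraries, for a log2 difference of 1.07 (SE 0.29, adjusted p = 0.0107). Cdca8 was measured at 12.6, 14.9 and 35.0 CPM in knockout and 8.33, 11.2 and 12.5 CPM in control libraries, with no overlap, for 0.96 (SE 0.28, adjusted p = 0.0146). Incenp was measured at 23.6, 26.1 and 61.0 CPM in knockout and 22.7, 24.1 and 25.1 CPM in control libraries, with knockout 1 to 4 at 23.6 to 26.6 CPM overlapping the controls, for 0.60 (SE 0.24, adjusted p = 0.0617). It passed on leaving out knockout 1, 2, 3 or 4, with an adjusted p down to 0.0348. Aurkb was measured at 8.52, 9.88 and 24.1 CPM in knockout and 9.92, 10.8 and 12.5 CPM in control libraries. Knockout 5 and 6 reached 23.4 to 24.1 CPM, while knockout 1 to 4 at 8.52 to 10.4 CPM lay in or below the lower part of the control range, so the 12-library difference of 0.35 (SE 0.27, adjusted p = 0.316) joins values on both sides of the controls. On leaving out knockout 5 and 6, Aurkb was lower in knockout, with a log2 difference of -0.26 (SE 0.09, adjusted p = 0.0394), and also without control 6, at -0.29 (SE 0.09, adjusted p = 0.0113). In the same 10 libraries Birc5 (0.45, adjusted p = 0.0164) and Cdca8 (0.37, adjusted p = 0.0269) were higher, and Incenp (0.07) did not pass. The differences among these genes were not tested against each other.

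Kinetochores are the protein plates on centromeres that catch microtubules, and 5 of the 6 genes of this group were higher. Nuf2, a subunit of the microtubule-binding NDC80 complex, was measured at 12.7, 14.5 and 25.8 CPM in knockout and 7.15, 8.59 and 9.54 CPM in control libraries. The groups were well apart, and the log2 difference was 1.06 (SE 0.20, adjusted p = 0.00115), a fold of 2.08. Spc25, of the same complex, was measured at 10.0, 14.1 and 23.2 CPM in knockout and 7.98, 9.67 and 9.94 CPM in control libraries, for 0.74 (SE 0.19, adjusted p = 0.00763). The gap there was narrow, from 9.94 CPM in the highest control to 10.0 CPM in the lowest knockout library. Ndc80, which names the complex, gave 0.87 (SE 0.30, adjusted p = 0.0308), but its groups overlapped. That call was lost without knockout 5, knockout 6 or any control but control 4 (adjusted p up to 0.0715). Cenpe, a kinesin that moves chromosomes to the spindle equator, was measured at 21.4, 28.7 and 48.1 CPM in knockout and 16.5, 18.8 and 20.4 CPM in control libraries, for 0.85 (SE 0.19, adjusted p = 0.00358), with no overlap. Cenpf, a protein of the outer kinetochore corona, was measured at 15.0, 18.8 and 30.4 CPM in knockout and 12.6, 14.5 and 15.0 CPM in control libraries, also with no overlap, for 0.61 (SE 0.17, adjusted p = 0.0136). Cenpa, the histone variant that marks centromeres, gave 0.28 (SE 0.14, adjusted p = 0.118) and did not pass. Without knockout 5 and 6, Nuf2 (0.69), Cenpe (0.50), Spc25 (0.41) and Cenpf (0.29) were still called higher, with adjusted p from 0.000253 to 0.0172, and Ndc80 (0.24, adjusted p = 0.16) and Cenpa (0.17) were not.

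The spindle checkpoint holds anaphase back until every kinetochore is attached, and 3 of its 4 genes were higher. Bub1, a kinase that recruits checkpoint proteins to kinetochores, was measured at 14.2, 15.9 and 27.2 CPM in knockout and 8.78, 9.89 and 11.3 CPM in control libraries, with the groups well apart, for a log2 difference of 0.95 (SE 0.18, adjusted p = 0.00124). Mad2l1, the inhibitor that binds CDC20, was measured at 17.1, 19.3 and 42.5 CPM in knockout and 11.8, 12.2 and 14.4 CPM in control libraries. Its difference of 1.06 (SE 0.25, adjusted p = 0.00469) was a fold of 2.09, again with no overlap. Ttk, the kinase known as MPS1 at the head of the checkpoint, was measured at 4.11, 5.69 and 14.7 CPM in knockout and 3.37, 4.19 and 5.04 CPM in control libraries, the lowest levels of this group, and the groups overlapped. Its difference of 0.86 (SE 0.31, adjusted p = 0.0382) was lost without knockout 5, knockout 6 or any single control (adjusted p up to 0.0918). Bub1b, which encodes the checkpoint protein BUBR1, was measured at 17.7, 18.9 and 36.4 CPM in knockout and 14.9, 18.6 and 20.2 CPM in control libraries, with knockout 1 to 4 inside the control range, and 0.40 (SE 0.20, adjusted p = 0.125) did not pass. With knockout 5 and 6 left out, Bub1 (0.62) and Mad2l1 (0.53) were called higher, and Ttk (0.23) and Bub1b (0.01) were not.

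All 5 genes of spindle motors and assembly factors were higher. Hmmr, a microtubule-binding protein of spindle poles, was measured at 18.5, 24.7 and 30.6 CPM in knockout and 11.3, 13.8 and 17.4 CPM in control libraries. Its groups did not overlap, and knockout 5 and 6 at 30.5 to 30.6 CPM stood only 1.33 times above the mean of knockout 1 to 4. The log2 difference was 0.87 (SE 0.14, adjusted p = 0.000372), a fold of 1.83, and 0.73 (SE 0.13, adjusted p = 0.000897) without knockout 5 and 6. Kif11, the motor that pushes spindle poles apart, was measured at 18.0, 20.5 and 44.3 CPM in knockout and 12.4, 15.6 and 16.5 CPM in control libraries, for 0.87 (SE 0.24, adjusted p = 0.0109). Kif4, a kinesin of chromosome arms, was measured at 15.5, 16.4 and 39.9 CPM in knockout and 11.7, 12.6 and 14.9 CPM in control libraries, for 0.80 (SE 0.24, adjusted p = 0.019). Neither overlapped. Tpx2, which activates Aurora A on the spindle, was measured at 45.6, 51.9 and 92.5 CPM in knockout and 35.9, 44.2 and 51.4 CPM in control libraries, overlapping, for 0.50 (SE 0.19, adjusted p = 0.048). The call on Tpx2 was lost without knockout 2, knockout 5, knockout 6 or any single control (adjusted p up to 0.103). Kif2c, a kinesin that takes microtubules apart at centromeres, gave 0.77 (SE 0.21, adjusted p = 0.00949). With knockout 5 and 6 left out, Tpx2 (0.15, adjusted p = 0.225) was the one gene of the 5 not called, and Kif11 (0.38), Kif4 (0.29) and Kif2c (0.42) were called higher.

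The central spindle and the contractile ring divide the cell after anaphase, and all 6 of their genes were higher with no overlap between groups. Anln encodes anillin, the scaffold of the contractile ring, and was measured at 87.2, 100.4 and 137 CPM in knockout and 39.3, 46.7 and 65.3 CPM in control libraries. Control 6, at 65.3 CPM, stood above the other controls, and still below the lowest knockout library. The log2 difference of 1.19 (SE 0.15, adjusted p = 8.19e-05), a fold of 2.28, was the largest among the 38 members. It held at 1.00 (SE 0.13, adjusted p = 0.000123) without knockout 5 and 6. Kif20a, a kinesin of the midzone, was measured at 36.2, 41.0 and 53.1 CPM in knockout and 23.7, 27.1 and 33.5 CPM in control libraries, for 0.64 (SE 0.11, adjusted p = 0.000708). Prc1, which bundles antiparallel microtubules, was measured at 37.3, 44.1 and 95.1 CPM in knockout and 22.0, 26.0 and 34.4 CPM in control libraries. Its difference of 1.13 (SE 0.24, adjusted p = 0.00274) was a fold of 2.19.

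Kif23 and Racgap1 encode the partners of the centralspindlin complex, and Ect2 the exchange factor they bring to the cell equator. Kif23 was measured at 16.3, 19.1 and 37.0 CPM in knockout and 11.3, 13.5 and 15.2 CPM in control libraries, for 0.81 (SE 0.21, adjusted p = 0.0081). Racgap1 was measured at 29.5, 31.4 and 66.4 CPM in knockout and 23.3, 27.8 and 29.1 CPM in control libraries, with the groups barely apart, for 0.66 (SE 0.22, adjusted p = 0.0302). Its call was lost without knockout 5, knockout 6, control 2 or control 5 (adjusted p up to 0.0662). Ect2 was measured at 16.8, 20.0 and 43.8 CPM in knockout and 11.7, 13.1 and 16.4 CPM in control libraries, for 0.96 (SE 0.25, adjusted p = 0.00785). Without knockout 5 and 6, the differences were 0.53 for Kif20a, 0.64 for Prc1, 0.46 for Ect2 and 0.41 for Kif23, all called higher, and 0.19 for Racgap1, which did not pass (adjusted p = 0.0534).

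Of the 3 genes that work with the anaphase-promoting complex or carry out its verdict, 1 was higher. Cdc20, the activator that the checkpoint holds in check, was measured at 25.5, 29.4 and 53.3 CPM in knockout and 20.9, 23.4 and 24.6 CPM in control libraries, with no overlap. The log2 difference was 0.66 (SE 0.18, adjusted p = 0.0112), and 0.31 (SE 0.07, adjusted p = 0.00577) without knockout 5 and 6. Ube2c, the ubiquitin-conjugating enzyme of the complex, was measured at 19.2, 22.1 and 42.1 CPM in knockout and 14.1, 22.1 and 24.8 CPM in control libraries, with medians that round to the same value, and 0.39 (SE 0.23, adjusted p = 0.19) did not pass. The value without knockout 5 and 6 was -0.03. Espl1, the separase that cuts cohesin, gave 0.65 (SE 0.26, adjusted p = 0.057), and it passed on leaving out knockout 1, 2, 3 or 4 (adjusted p down to 0.0323), while without knockout 5 and 6 it was 0.12.

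**Figure D3:**
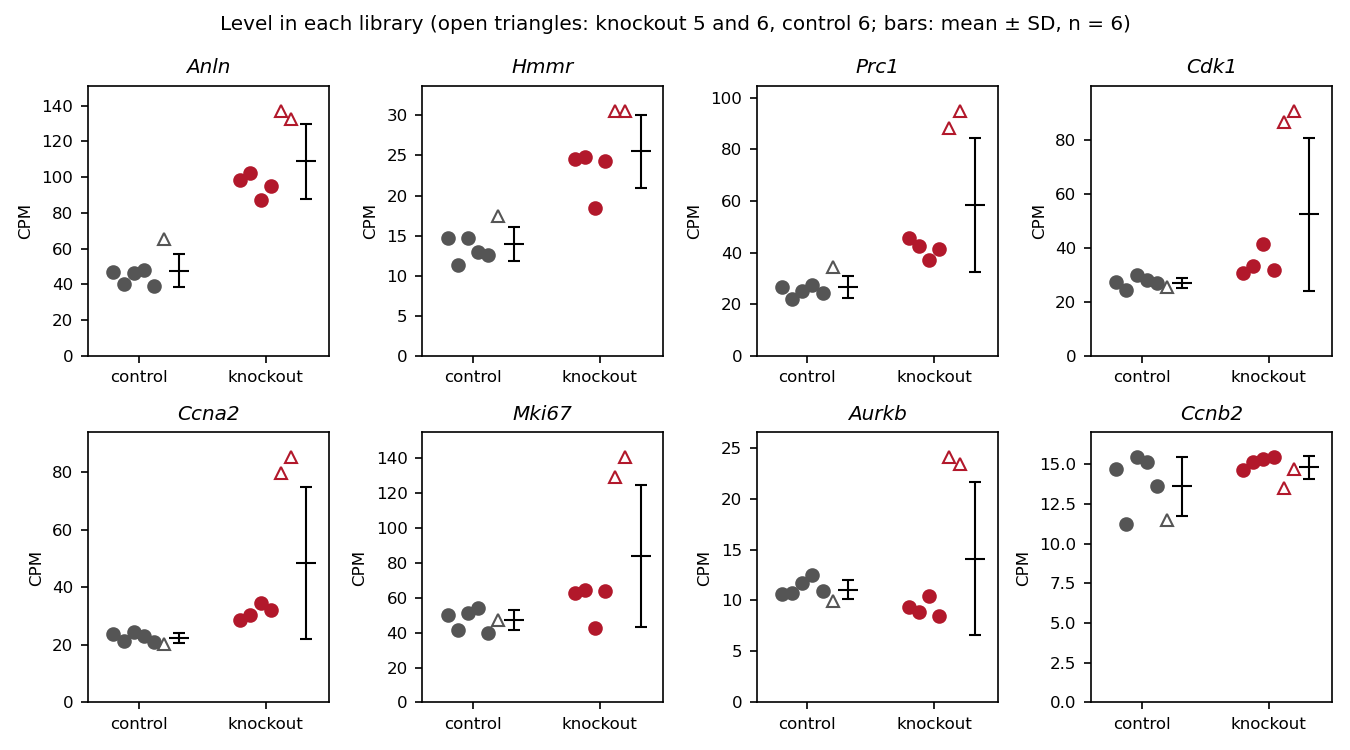
CPM of selected members in each library, 1 panel per gene, with the 2 groups on the x axis and CPM on a linear y axis from 0. Each point is 1 library, open triangles are knockout 5 and 6 and control 6, and bars give the mean ± SD of 6 libraries. Anln and Hmmr are above all controls in each of the 6 knockout libraries, while for Aurkb only knockout 5 and 6, at 23.4 to 24.1 CPM, stand above the controls.

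The step from knockout 1 to 4 up to knockout 5 and 6 differed in size between members. The ratio of the mean of knockout 5 and 6 to that of knockout 1 to 4 had a median of 2.0 and ran from 0.931 (Ccnb2) to 2.66 (Ttk). After Ccnb2 it was lowest in Cenpa and Kif20a (both 1.23), Hmmr (1.33) and Anln (1.41). Against control 1 to 5, the median member differed by a log2 value of 0.28 in knockout 1 to 4 and 1.30 in knockout 5 and 6. Against control 6 alone the values were 0.41 and 1.30.

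**Figure D4:**
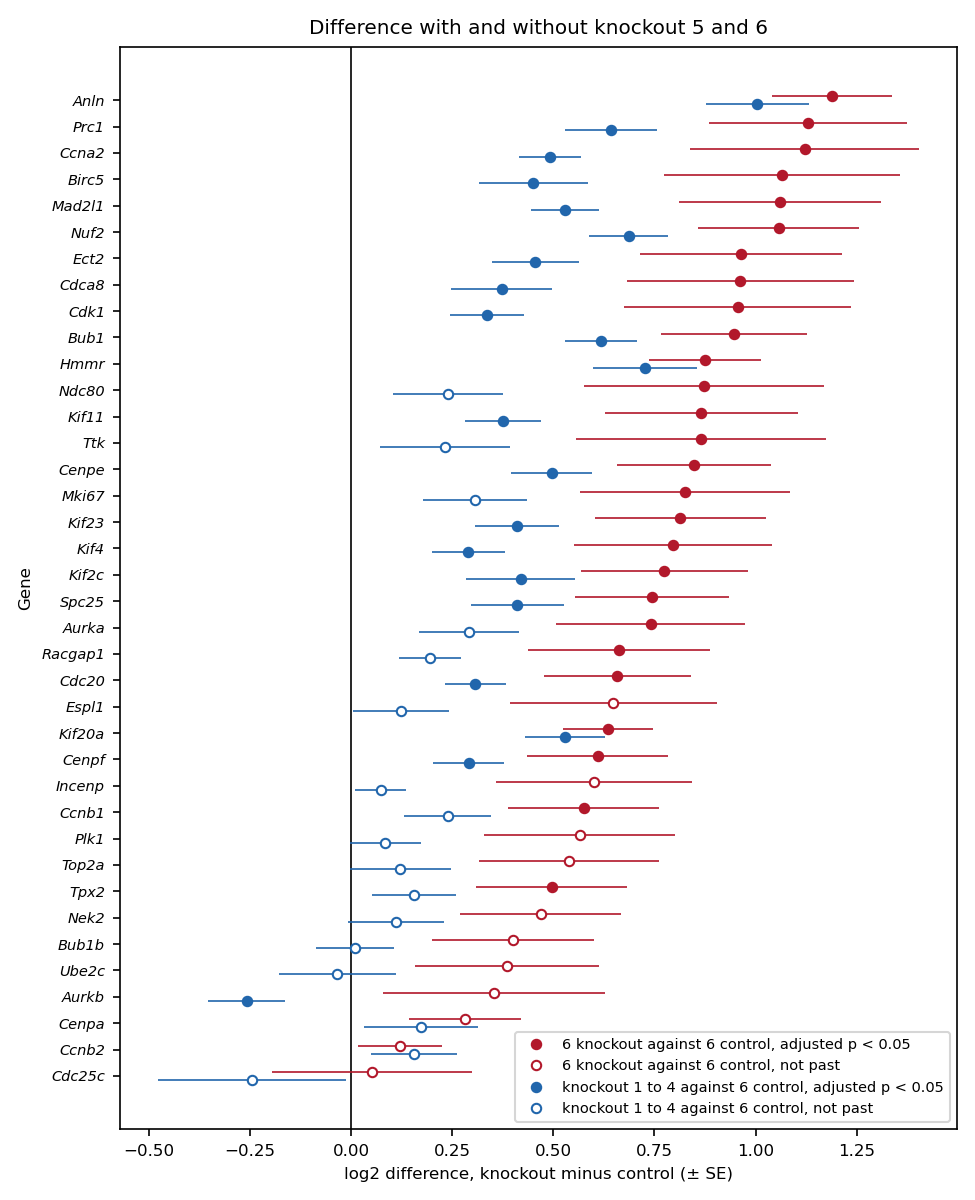
Log2 difference of each member, knockout minus control (x axis, bars give the SE), for all 12 libraries in red and with knockout 5 and 6 left out in blue; each line is 1 gene, and filled points passed the edgeR test. The median member moves from 0.76 to 0.30, Anln, Hmmr and Kif20a keep differences of 1.00, 0.73 and 0.53, and Aurkb falls below 0.

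A wider list of mitotic genes, which holds none of the 38, gave mostly higher calls. Of 75 genes, 74 were tested, and 45 were higher (60.8%) and 1 lower, against 21.4% and 21.6% of all genes. The median log2 difference was 0.69. Mastl, the kinase that shields CDK1 substrates from dephosphorylation, was measured at 8.70, 11.2 and 14.0 CPM in knockout and 4.73, 5.49 and 6.25 CPM in control libraries, with no overlap, for 1.05 (SE 0.13, adjusted p = 7.36e-05). Kpna2, a nuclear import receptor that also regulates TPX2, was measured at 113, 124 and 179 CPM in knockout and 65.7, 71.5 and 88.3 CPM in control libraries, with no overlap, for 0.92 (SE 0.14, adjusted p = 0.000253). The gene called lower was Mad2l2, whose product inhibits the anaphase-promoting complex and works in DNA repair. It was measured at 4.62, 6.80 and 11.8 CPM in knockout and 7.12, 12.4 and 13.7 CPM in control libraries, for -0.65 (SE 0.22, adjusted p = 0.0304). That call was lost without knockout 1, 2 or 4 or without control 2, 3, 4 or 5 (adjusted p up to 0.0648). With knockout 5 and 6 left out, the wider list had 29 genes higher (39.2%) and 6 lower, against 24.5% and 27.5% of all genes, with a median of 0.25. Mastl (0.92) and Kpna2 (0.70) were then still called higher and Mad2l2 (-0.96) lower.

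Of 22 regulators that act on mitotic gene transcription, 8 were higher (36.4%) and 2 lower, against 21.4% and 21.6% of all genes, with a median of 0.29. Foxm1, the activator of late mitotic genes, was measured at 21.7, 26.8 and 64.6 CPM in knockout and 19.7, 22.1 and 25.8 CPM in control libraries, and knockout 5 and 6 alone stood clear at 60.1 to 64.6 CPM. Its difference of 0.73 (SE 0.28, adjusted p = 0.0494) was lost without knockout 5, knockout 6 or any single control (adjusted p up to 0.115), and was 0.13 (SE 0.10, adjusted p = 0.325) without both. Mybl2, which encodes B-MYB, was measured at 8.34, 8.98 and 55.7 CPM in knockout and 6.23, 7.11 and 7.83 CPM in control libraries. Knockout 5 and 6, at 50.5 to 55.7 CPM, were far above the rest, and the difference of 1.74 (SE 0.52, adjusted p = 0.0169) came to 0.31 (SE 0.09, adjusted p = 0.0137) without them. E2f7, a repressor of E2F targets, was measured at 6.42, 8.55 and 36.9 CPM in knockout and 2.71, 4.27 and 5.47 CPM in control libraries, for 2.05 (SE 0.46, adjusted p = 0.00356), and 0.95 without knockout 5 and 6. E2f3, an activator, gave 0.46 (SE 0.09, adjusted p = 0.00139). The genes called lower were Rbl2, the p130 protein of DREAM, at -0.54 (SE 0.13, adjusted p = 0.00646), and Lin52, another DREAM subunit, at -0.67 (SE 0.19, adjusted p = 0.0147). The list without knockout 5 and 6 had 4 higher (18.2%) and 3 lower, below the 24.5% and 27.5% of all genes, with a median of 0.02. There E2f3 (0.36) stayed higher and Rbl2 (-0.39) and Lin52 (-0.75) lower.

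The core of the anaphase-promoting complex was called about as often as all genes. Of its 13 genes, counting the coactivator Fzr1, 3 were higher and 3 lower, against 21.4% and 21.6% of all genes, with a median of 0.04. The scaffold genes Cdc16 (0.26) and Anapc4 (0.32) were higher by small amounts. Anapc5 (-0.25) and the small subunit Anapc13 (-0.22) were lower. Both of these calls were lost when single libraries were left out. Those were knockout 5, knockout 6 and control 2 to 5 for Anapc5 (adjusted p up to 0.0589), and knockout 1, 2 and 4 and control 1, 2, 4 and 5 for Anapc13 (adjusted p up to 0.0857). Leaving out knockout 5 and 6 gave 3 higher and 5 lower, against 24.5% and 27.5% of all genes, with a median of 0.03. The differences were then 0.29 for Cdc16, 0.39 for Anapc4, -0.18 for Anapc5 and -0.26 for Anapc13.

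DNA replication genes act in S phase, ahead of mitosis. Of 30 tested, 12 were higher (40.0%, against 21.4% of all genes), with a median of 0.84. By edgeR (also at an unadjusted p under 0.05), DESeq2 or limma-voom, 0 were lower, against 21.6% of all genes by edgeR. Their median relative to the controls was 0.06 to 0.15 in knockout 1 to 4, 1.77 in knockout 5 and 1.81 in knockout 6. Leaving out knockout 5 and 6 gave 9 higher and 4 lower, against 24.5% and 27.5% of all genes. The median of the list was then 0.04, where the 38 mitotic members had 0.30. Rrm2, the regulated subunit of ribonucleotide reductase, was measured at 84.8, 94.7 and 243 CPM in knockout and 27.7, 31.1 and 46.7 CPM in control libraries, for 2.09 (SE 0.31, adjusted p = 0.000216). Ccne2, a cyclin of S phase entry, was measured at 10.9, 12.1 and 52.6 CPM in knockout and 3.26, 4.24 and 6.07 CPM in control libraries, for 2.38 (SE 0.45, adjusted p = 0.00123). Neither overlapped, and both were higher without knockout 5 and 6, at 1.46 for Rrm2 and 1.32 for Ccne2. The difference between the 2 lists was not tested.

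Among 13 CDK inhibitors and G1 cyclins, 4 were higher and 2 lower, with a median of 0.19. These shares are not far from the 21.4% and 21.6% of all genes. Cdk6, a kinase of early G1, gave 0.81 (SE 0.17, adjusted p = 0.00264). Its partner cyclin gene Ccnd1 was measured at 269, 539 and 560.5 CPM in knockout and 161, 178 and 518 CPM in control libraries, for 0.99 (SE 0.32, adjusted p = 0.0239). Control 6 was the high control at 518 CPM, and the call was lost without any one of control 1 to 5 (adjusted p up to 0.0548). Cdkn2c, the CDK4 and CDK6 inhibitor p18, was measured at 10.6, 11.8 and 13.2 CPM in knockout and 16.2, 17.1 and 18.8 CPM in control libraries, with no overlap, for -0.54 (SE 0.08, adjusted p = 0.000309). Cdkn1b, the inhibitor p27, was measured at 13.6, 26.4 and 26.9 CPM in knockout and 23.0, 42.5 and 45.4 CPM in control libraries, for -0.82 (SE 0.21, adjusted p = 0.00694), with control 6 as the low control at 23.0 CPM. Cdkn1a, the p53 target p21, was measured at 425, 457 and 494 CPM in knockout and 385, 395 and 443 CPM in control libraries and did not pass, at 0.19 (SE 0.08, adjusted p = 0.0639). It passed without control 6 (adjusted p = 0.0114). With knockout 5 and 6 left out, this list had 6 genes higher and 2 lower, against 24.5% and 27.5% of all genes, with a median of 0.23. The values were then 0.84 for Cdk6, 1.24 for Ccnd1, -0.54 for Cdkn2c, -0.58 for Cdkn1b and 0.23 for Cdkn1a, which passed (adjusted p = 0.012).

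**Figure D5:**
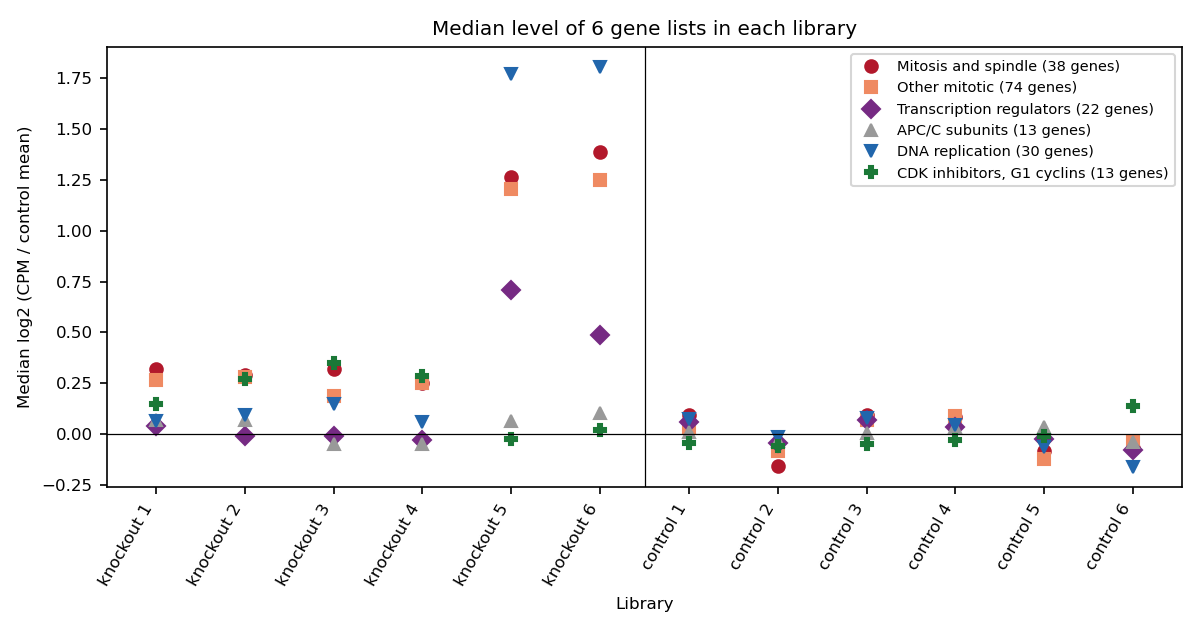
Median log2 CPM relative to the control mean (y axis) of the 38 members and of each comparison list in the 12 libraries (x axis); each point is 1 list in 1 library. The members stand at 0.25 to 0.32 in knockout 1 to 4 and at 1.26 and 1.39 in knockout 5 and 6, and the DNA replication list at 0.06 to 0.15, 1.77 and 1.81.

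Markers of the labelled cells and of other cell types were read in the same libraries. All 12 markers of fibroblasts and myofibroblasts were present, among them Acta2 and Col1a1. Their summed level was 33950 to 34549 CPM in knockout 1 to 4, 14148 to 14283 CPM in knockout 5 and 6, 25847 to 26886 CPM in control 1 to 5 and 36598 CPM in control 6. The sum was thus lowest in the same 2 libraries in which the mitotic genes were highest. Collagens weigh heavily in that sum. Col1a1 had a knockout median of 10787 CPM and a lowest knockout value of 1993 CPM, and Col1a2 had 6163 and 1358 CPM. The sum does not stand for each marker, as the lowest knockout values of Vim (3626 CPM) and Tagln (2548 CPM) were above every control. Over the 12 libraries Acta2, Tagln, Myl9 and Vim were higher and Col3a1, Pdgfra, Dcn and Lum lower. The 11 macrophage and leukocyte markers summed to 37.9 to 43.2 CPM in knockout 1 to 4, 46.9 to 56.9 CPM in knockout 5 and 6 and 78.3 to 126.6 CPM in control libraries. Of these, 9 were tested and 6 were lower, against 21.6% of all genes, while Ptprc, Csf1r and Cd14 did not pass. Lyz2 alone was at 27.3 to 36.9 CPM in knockout and 49.2 to 93.2 CPM in control libraries. Cd3e and Cd79a had at most 5 counts in any library. The 10 epithelial markers summed to 17.5 to 23.3 CPM in knockout 1 to 4, 14.9 to 15.6 CPM in knockout 5 and 6 and 7.49 to 20.2 CPM in controls, and Epcam, Cdh1, Vil1, Lgr5 and Cldn7 had at most 5 counts in any of them. Endothelial (7 genes), glial and neuronal (7), Cajal cell (3) and mesothelial (4) markers each summed to at most 34.3 CPM in a library. In knockout 5 and 6 the glial and neuronal list, at 32.6 to 34.3 CPM, and the mesothelial list, at 6.73 to 7.68 CPM, were above all other libraries. The share of Rn45s, given above, also moved with the sets. Total counts were lower in every knockout library than in every control. Those of knockout 5 and 6, at 9410146 to 9519279, lay within the range of knockout 1 to 4. The part of these differences in the mitotic result was not tested.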

How the data were processed

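RNA from 12 libraries of primary mouse colonic myofibroblasts, 6 knockout and 6 control, was selected with oligo-dT and made into dUTP strand-specific libraries, per the labels' protocols. What the authors deposited is 1 table of expected counts by gene symbol. The submitters' processing notes list RSEM 1.2.15, Bowtie2 2.1.0 and the human build hg38, while the symbols are of mouse genes. Annotation release and strand setting were not given in the sources used here, and overlapping or near-identical genes are uncertain. Groups came from the sample titles, and 0 columns were left unmapped. Between 2.67% and 3.48% of the values in a library had decimals, and all were rounded.

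The edgeR filter filterByExpr (count of at least 10, total of at least 15) left 12146 genes. Scaling used the trimmed mean of M-values (TMM). Knockout was tested against control, two-sided, with genotype as the only term, by the quasi-likelihood test of edgeR 4.0.16 in R 4.3.3. P-values were adjusted by Benjamini-Hochberg over all genes tested, and called under 0.05. A positive log2 difference means a higher level in knockout, and CPM use the scaled library sizes.

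The members, roles, lists and tests were chosen with earlier results of these data known. Members were described in full where they had the smallest adjusted p or highest mean CPM of their role, where the groups did not overlap, or as standard markers (Mki67, Top2a, Cdk1, Ccnb1, Plk1). Each comparison list gave its 2 called genes with the smallest adjusted p in each direction, with Foxm1, Mybl2, Cdkn1a and Tnfrsf1a added. Full values of Ccnb2, Aurkb, Incenp, Ttk, Bub1b and Ube2c and the printed promoters were chosen after their values were seen.

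Alternatives were the size factors and test of DESeq2 1.42.0, library totals alone, limma-voom (limma 3.58.1), no filter, a CPM of at least 1 in 6 libraries, a replicate block, and each library left out. Fits without knockout 5 and 6, without control 6 as well, and on 4 summed sets were added after the data were seen.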

Additional observations from a re-analysis of the deposited data

Results flagged for a closer look

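Among the 38 members in each of the 2 groups of 6 libraries, 76 groups of values in all, 2 held a library far from the others by Dixon's ratio of gap to range. Chance gives about 1 in 20 such groups. Spc25, of the NDC80 complex, was low in control 2, at 7.98 CPM against 9.50 to 9.94 CPM in the other controls, with a Dixon ratio of 0.774. Anln, the anillin gene, was high in control 6, at 65.3 CPM against 39.3 to 47.9 CPM in the other controls, with a ratio of 0.669. Both values lay below all 6 knockout libraries.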

How the results depend on the processing

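The count of members called higher was 27, and within 1.5 times of that under DESeq2 size factors (27), library totals alone (23), the DESeq2 test (31), limma-voom (24), no filter (26) and the stricter filter (27). Leaving out 1 library gave 22 to 31 members higher and 0 lower, and a median log2 difference of 0.59 to 0.85. Of the 27 members, 22 stayed called in all 12 of these fits and 5 were lost in at least 1.

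Without knockout 5 and 6, 20 members were higher and 1 lower, and the median was 0.30. Without control 6 as well, 23 were higher and 1 lower, and the median was 0.29. Aurkb turned from 0.35 to -0.26 and -0.29 in these fits. On the 4 summed sets 0 members were called, as were 0 other mitotic genes higher, 0 lower, and 0 genes higher or lower over the whole table. That fit has 4 samples. Over the whole table the fit without knockout 5, 6 and control 6 called 4319 genes higher and 4508 lower, against 2597 and 2622 in the 12 libraries, and leaving out 1 library gave 2148 to 3092 and 2270 to 2977. The other mitotic genes had 45 higher and 1 lower, 29 and 6 without knockout 5 and 6, 39 and 11 without control 6 as well, and 30 to 47 and 0 to 2 with 1 library left out. The causes were not tested.

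With a replicate block, 17 members were higher with a median of 0.69, and 22 other mitotic genes were higher and 0 lower. Replicate numbers share only a number here. Deviations of same-numbered libraries correlated at -0.36 to 0.18 over 6 pairs, and 0 knockout and 0 control libraries correlated best with their own number. Depth limits the lowest members most, such as Cdc25c with as few as 17 counts in a library.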

Other observations

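Condensins, the ring complexes that compact mitotic chromosomes, are encoded by 8 genes of the wider mitotic list, and 6 of them were higher in knockout. The group was picked out after its values were seen, from a list in which 45 of 74 tested genes were higher (60.8%, against 21.4% of all genes), so its count is a description. Smc2 and Smc4, the ATPase subunits shared by both condensins, were measured at 33.4, 44.2 and 89.4 CPM in knockout and 21.6, 26.2 and 32.3 CPM in control libraries and at 76.6, 84.0 and 145 CPM in knockout and 52.3, 59.0 and 66.9 CPM in control libraries (lowest, median and highest), neither with any overlap. Their log2 differences were 1.11 (SE 0.25, adjusted p = 0.00315) for Smc2 and 0.78 (SE 0.17, adjusted p = 0.00327) for Smc4 (edgeR quasi-likelihood test, Benjamini-Hochberg). Among the subunits of condensin I, Ncapg (1.03) and Ncaph (0.80) were higher, and Ncapd2 (0.01, adjusted p = 0.962) did not pass. Among those of condensin II, Ncapg2 (0.91) and Ncapd3 (0.57) were higher, and Ncaph2 (-0.12, adjusted p = 0.424) did not pass. Without knockout 5 and 6, Smc2 (0.64), Smc4 (0.45) and Ncapg (0.43) were called higher and Ncapd2 (-0.25) and Ncaph2 (-0.32) lower. In that fit 24.5% of all genes were higher and 27.5% lower.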
